A study of Mus musculus with 2 samples.

Results

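The collagen chain genes were taken as all genes whose symbol is Col, a number, the letter a and a number, with nothing after it. The rule found 44 of the 32285 genes in the matrices, of which 41 had at least 1 unique molecular identifier (UMI) in the sham library and 44 in the overload library. Their levels are given across muscle stem cells (MuSCs) and the other cells of 2 single-cell libraries from mouse plantaris muscle. The mice were Pax7rtTA; TRE-H2B-GFP animals aged 26 weeks, in which the Pax7 locus drives the doxycycline-dependent activator of a nuclear GFP, and both groups had received doxycycline at 2.0 mg/ml for 2 weeks. One library came from a sham operation and 1 from mechanical overload (MOV) by synergist ablation, taken after 5 days. The labels name a single mouse and the methods several animals per group, so how many animals a library holds could not be settled. Per the methods, the sorted cells were VCAM+ and negative for CD31, CD45 and SCA1.

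A collagen molecule is a triple helix of chains that are each made by their own gene. Fibrillar collagens such as types I, III and V give tissue its tensile strength, type IV forms the network of basement membranes, type VI forms beaded filaments between cells and matrix, and the FACIT collagens attach to the surface of fibrils. A MuSC sits between its fibre and the basal lamina, and types V and VI are known parts of this niche. Interstitial fibroblasts with PDGFRα and the tenocytes of tendon are the main collagen producers of muscle.

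Cells were grouped by UMIs of marker lists that hold no collagen gene. The sham and MOV matrices held 1100 and 3854 cells with 7302661 and 88498487 UMIs, a median of 4116.5 and 16836 UMIs per cell. Below a mitochondrial share of 10%, 684 sham and 2496 MOV cells fell in a class. MuSCs numbered 98 and 1295. They were divided into quiescence-marker MuSCs (74 and 198, with Chodl, Calcr and Spry1 among the markers), Gpc3/Islr MuSCs (3 and 238), cycling MuSCs (13 and 669) and other MuSCs (8 and 190). Pdgfra cells numbered 33 and 259, Lrrc15 fibroblasts (Lrrc15, Cthrc1 and Adam12) 2 and 388, tenocytes 22 and 110, and muscle fibre droplets 510 and 42. Myocytes (198), endothelial (22), mural (31), Schwann (64) and myeloid cells (87) reached 20 cells in the MOV library alone. In the MOV library every marker of a list had UMIs in its own class. Endothelial, myeloid and Pdgfra cells were thus present after a sort that names CD31, CD45 and SCA1. Of 682 fibroblasts, 127 lay within 0.25 score units of the line between Pdgfra cells and Lrrc15 fibroblasts, so these are ranges of a score and not separate types. The libraries shared 44 barcodes. Of these 39 were deeper in sham, with a median of 2.12% of the UMIs in the MOV copy, and the shallower copies were left out.

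Levels are UMIs of a gene per 1000000 UMIs of its class (CPM). A 3′ library reads 1 end of each transcript, so CPM was compared between genes without dividing by length. With 1 library per condition no test could be made, and the intervals are exact 95% intervals that cover counting error only. A gene was called higher or lower past 2-fold, among genes with at least 20 UMIs in both classes together, and each count of collagen genes stands beside the percentage of all such genes that were called. Of the 44 genes, 35 reached 10 CPM in a class of at least 20 cells. The 9 others were Col4a3, Col4a6, Col6a4, Col6a5, Col9a1, Col10a1, Col17a1, Col24a1 and Col25a1, whose highest levels lay between 0.633 and 8.47 CPM.

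Col1a2 on chromosome 6 and Col3a1 on chromosome 1 were the leading collagen genes of most classes, and the 250 bases before their RefSeq starts (GRCm38.p6, plus strand) are shown for that reason. Capitals mark CCAAT (the CCAAT box), TATAAA (letters of the TATA box) and GGGCGG (letters of the GC box), which were searched on both strands and share no base in these windows.
Col1a2 (chr6:4505368-4505617): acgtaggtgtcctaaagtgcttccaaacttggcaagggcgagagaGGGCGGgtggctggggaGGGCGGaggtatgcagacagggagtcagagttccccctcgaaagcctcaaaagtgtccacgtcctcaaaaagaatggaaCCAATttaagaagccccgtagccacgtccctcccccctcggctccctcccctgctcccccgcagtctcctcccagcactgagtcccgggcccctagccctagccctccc
Col3a1 (chr1:45311288-45311537): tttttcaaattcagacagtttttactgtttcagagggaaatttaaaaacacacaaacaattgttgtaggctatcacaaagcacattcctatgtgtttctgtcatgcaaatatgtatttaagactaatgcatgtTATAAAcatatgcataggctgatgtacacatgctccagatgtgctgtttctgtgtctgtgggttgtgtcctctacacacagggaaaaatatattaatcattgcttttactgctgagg
Col1a2 held GGGCGG at 205 and 188 bases and CCAAT at 109 bases before the start, and Col3a1 held TATAAA at 117 bases. Of the 35 collagen genes with a sequence in the table, 13 (37.1%) held CCAAT, 5 (14.3%) TATAAA and 21 (60%) GGGCGG. A gene counted if any of its windows held the letters, and by window the counts were 13, 5 and 22 of 38. Of all 32851 windows of this length, 33.8%, 12.4% and 32.7% held them. A match describes letters and is no evidence of binding.

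Fibroblasts gave the largest part of their message to collagen. In the MOV library the median Lrrc15 fibroblast gave 4.29% of its UMIs to the 44 genes (quartiles 3.25% and 5.54%), the median Pdgfra cell 4.14% (3.01% and 5.10%), the median tenocyte 2.14% (1.41% and 3.20%) and the median mural cell 1.23% (0.766% and 1.91%). Within the MuSC lineage the medians were 0.391% in quiescence-marker MuSCs (0.271% and 0.548%), 0.386% in Gpc3/Islr MuSCs (0.268% and 0.488%), 0.198% in cycling MuSCs (0.117% and 0.299%) and 0.0768% in myocytes (0.0524% and 0.143%). The first 2 states overlapped almost completely, and the quartiles of myocytes lay below those of both. Schwann and endothelial cells had medians of 0.407% and 0.267%. MuSCs were 42.8% of the kept MOV cells and carried 7.65% of the collagen UMIs, while Pdgfra cells and Lrrc15 fibroblasts were 8.57% and 12.8% of the cells and carried 26.2% and 50.9%.

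In the sham library the shares were lower in each class that could be compared. The median was 0.0938% in quiescence-marker MuSCs (0.0410% and 0.140%), 0.794% in Pdgfra cells (0.251% and 1.07%) and 0.883% in tenocytes (0.426% and 1.43%). Summed over the class, collagen was 0.136% (0.127% to 0.145%) of UMIs in sham and 0.444% (0.436% to 0.453%) in MOV quiescence-marker MuSCs, 1.00% (0.970% to 1.04%) and 4.16% (4.15% to 4.18%) in Pdgfra cells, and 1.53% (1.48% to 1.58%) and 2.95% (2.93% to 2.97%) in tenocytes. The quartile ranges of the 2 libraries did not overlap in quiescence-marker MuSCs or Pdgfra cells, and touched in tenocytes.

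**Figure D1:**
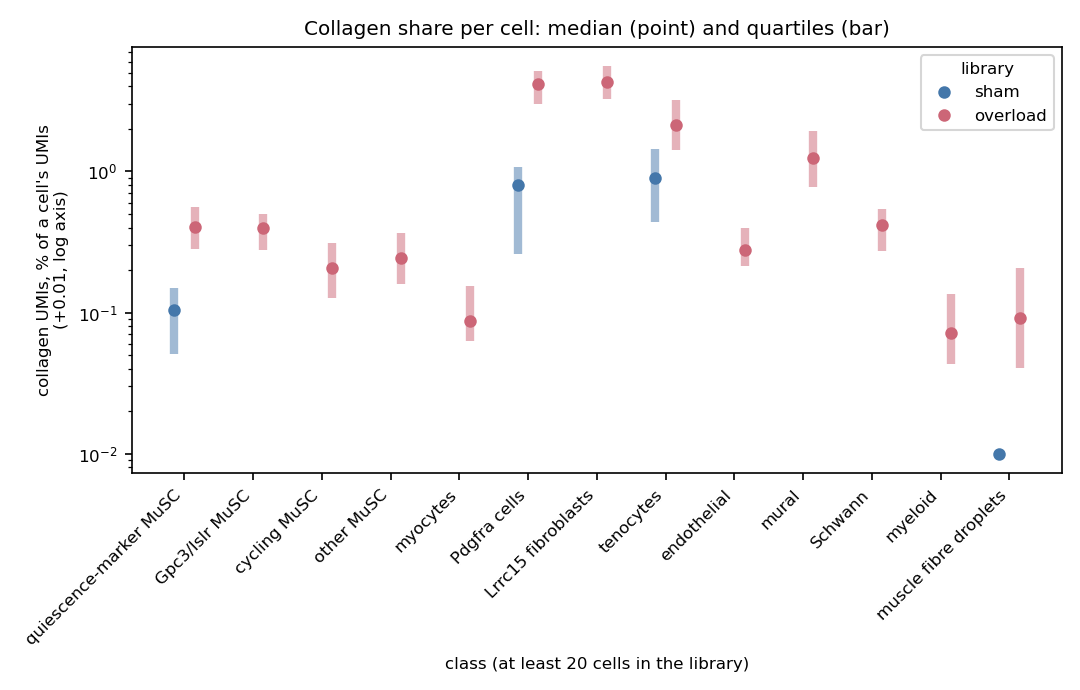
Share of each cell's UMIs from the 44 collagen genes, in percent with 0.01 added on a log axis, for classes with at least 20 cells in a library (points, median cell; bars, quartiles; blue, sham; red, MOV). The median lies at 0.0938% in sham and 0.391% in MOV quiescence-marker MuSCs, and at 0.794% and 4.14% in Pdgfra cells.

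Free RNA can give UMIs to droplets of cells that do not express a gene. Empty droplets were not analysed here, so myeloid and endothelial cells, which are not known as makers of fibrillar collagen, served as the comparison, and the source of their UMIs was not tested. The median myeloid cell of the MOV library held 4 UMIs of Col1a1, Col1a2 and Col3a1 together at a median depth of 11734 UMIs, and the median endothelial cell 3 at 10888.5. The median quiescence-marker MuSC held 19 at 11949.5, and the median Pdgfra cell 836 at 28103. One myeloid cell held 2369 of these UMIs, 23.4% of its class, and the Pdgfra list summed to 769 CPM in the myeloid class, so shares of cells and not summed levels are used for it below. In the sham library the median muscle fibre droplet held 0 at 3760 UMIs and the median quiescence-marker MuSC 1 at 7860. In the MOV library the median muscle fibre droplet held 2 at 2941.5 UMIs. Summed over these droplets, collagen was 0.00320% of UMIs in sham and 0.173% in MOV. A single MOV droplet held 37.5% of their Col1a1, Col1a2 and Col3a1 UMIs, and the source of the difference was not tested.

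Col3a1, the chain of the homotrimeric type III collagen, led 3 of the 4 MuSC states of the MOV library, at 1274 CPM in quiescence-marker, 518 in cycling and 666 in other MuSCs. In quiescence-marker MuSCs it was followed by the basement membrane chain Col4a1 at 901 CPM. Gpc3/Islr MuSCs were led by the type I chain Col1a2 at 907 CPM, with Col3a1 at 819.9 CPM. Type IV chains made 27.6% of the collagen UMIs in quiescence-marker, 16.4% in Gpc3/Islr and 13.5% in cycling MuSCs, and fibrillar chains 56.6%, 67.7% and 68.0%. The 2 multiplexins, collagens of basement membrane zones, were divided between the states. Col15a1 stood at 79.5 CPM in quiescence-marker MuSCs and between 14.3 and 23.0 CPM in the other 3 states. Col18a1, the source of endostatin, was lowest in quiescence-marker MuSCs at 44.4 CPM and highest in Gpc3/Islr MuSCs at 130.0 CPM.

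**Figure D2:**
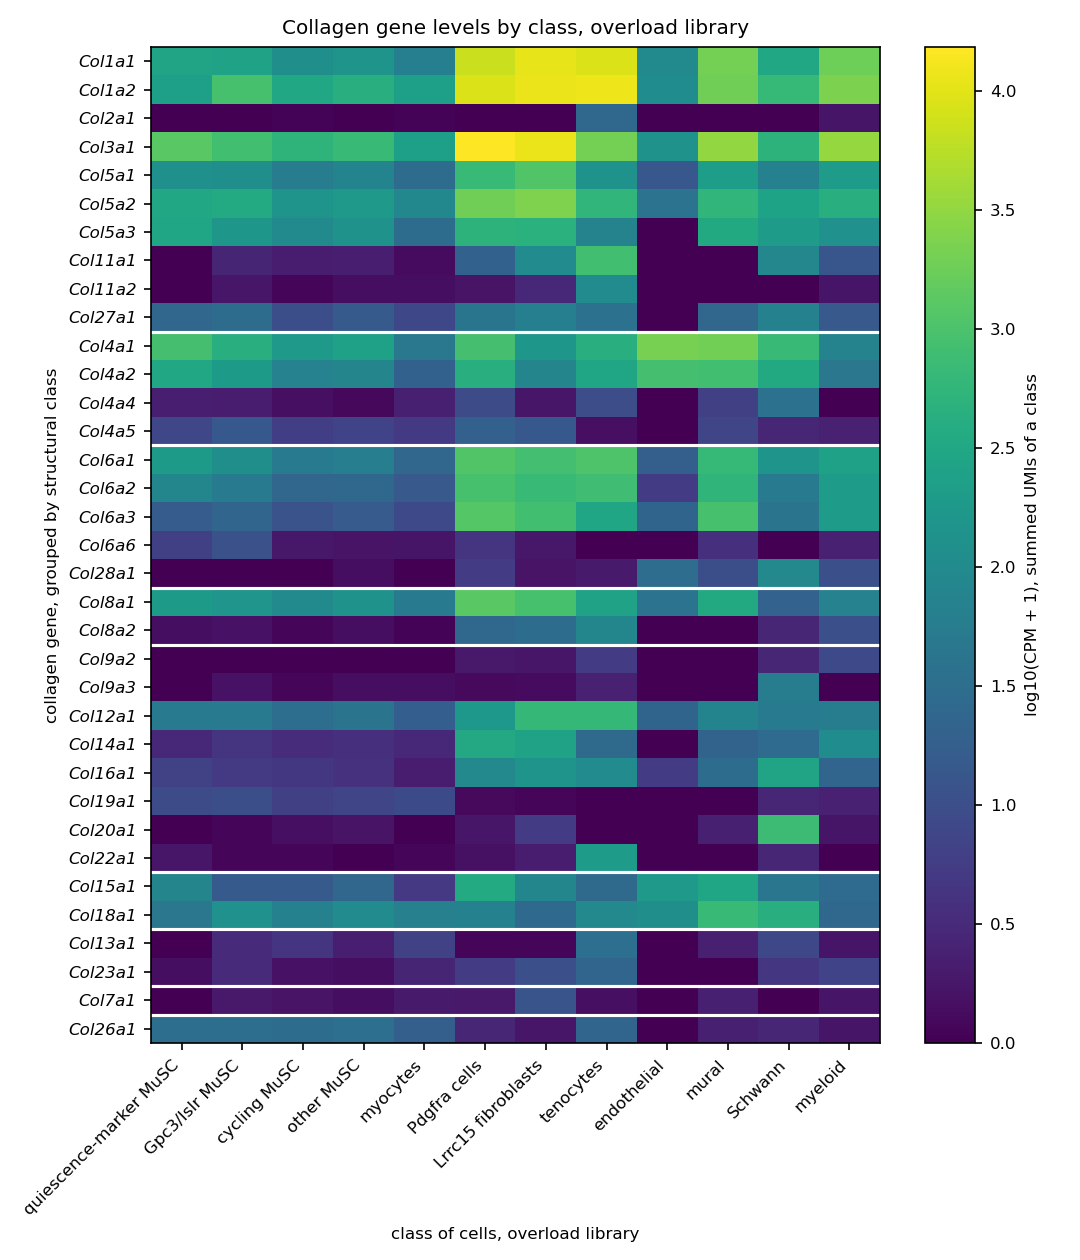
Level of the 35 collagen genes that reached 10 CPM (rows, grouped by structural class, white lines between groups) in 12 classes of the MOV library (columns), as log10 of CPM plus 1. The brightest cells are Col1a1, Col1a2 and Col3a1 in Pdgfra cells and Lrrc15 fibroblasts, and Col1a1 and Col1a2 in tenocytes. Col3a1 lies at 3148 CPM in mural cells and 2025 CPM in tenocytes. Single classes hold Col20a1 (Schwann, 738 CPM) and Col22a1 (tenocytes, 196 CPM).

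Gpc3/Islr MuSCs were set against all remaining MuSCs of the MOV library, 1057 cells of which 669 were cycling. They were higher in 10 of 30 collagen genes (background 7.55% of all genes) and lower in 0 (background 9.02%). The median log2 ratio was 0.88 over the collagen genes and 0.06 over all genes. Col1a2 stood at 907 against 321 CPM (log2 1.50, 1.45 to 1.55), Col5a2, which helps set fibril diameter, at 356 against 163 CPM (log2 1.13, 1.06 to 1.21), and the fibrillar Col27a1 at 28.6 against 10.9 CPM (log2 1.40, 1.11 to 1.67). The largest ratios belonged to rare transcripts, namely the transmembrane Col25a1 at 4.38 against 0.114 CPM (log2 5.12, 3.71 to 7.25) and the type VI chain Col6a6 at 9.72 against 1.14 CPM (log2 3.09, 2.46 to 3.72). Cycling MuSCs, set against non-cycling MuSCs, were lower in 8 of 30 genes (background 7.08%) and higher in 1 (background 8.45%), with a median of -0.82 against -0.07. The median depth was 33192 UMIs in cycling and 16635.5 in non-cycling MuSCs, so a lower CPM need not mean fewer UMIs per cell. Col4a1 stood at 174 against 459 CPM (log2 -1.40, -1.45 to -1.34), Col4a2 at 70.6 against 172 CPM (log2 -1.29, -1.38 to -1.20) and the type VI chain Col6a1 at 49.1 against 112 CPM (log2 -1.19, -1.30 to -1.08). The single gene higher in cycling cells was the transmembrane Col13a1, known from the neuromuscular junction, at 3.48 against 1.37 CPM (log2 1.31, 0.60 to 2.19). Both comparisons divide the same MuSCs, so they are not independent.

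Myocytes, the fusing cells with Myog and Mymk, held less collagen message than MuSCs. Of 31 genes, 16 were lower (background 9.86%) and 2 higher (background 7.34%), with a median log2 ratio of -1.07 against -0.11 over all genes. The lowest ratios were those of Col4a1, at 46.1 against 262 CPM (log2 -2.50, -2.64 to -2.37), Col4a2, at 18.6 against 102 CPM (log2 -2.45, -2.67 to -2.24), and Col15a1, at 3.87 against 19.5 CPM (log2 -2.31, -2.84 to -1.86). Other basement membrane chains did not follow them, with Col4a5 at 4.07 against 6.28 CPM and Col18a1 at 65.5 against 77.9 CPM, both within 2-fold. The genes higher in myocytes were the type IV chain Col4a4, at 1.32 against 0.571 CPM (log2 1.24, 0.11 to 2.25), and Col23a1, at 1.73 against 0.794 CPM (log2 1.14, 0.18 to 2.01), both rare transcripts. The minor type V chain Col5a3 stood at 29.2 against 123 CPM (log2 -2.07, -2.25 to -1.90) and Col3a1 at 226 against 621 CPM (log2 -1.46, -1.52 to -1.39). Col26a1 and Col19a1 were within 2-fold between myocytes and MuSCs and lower in Pdgfra cells. Col26a1 read 29.9 CPM in MuSCs, 17.3 in myocytes and 1.80 in Pdgfra cells, and the FACIT collagen Col19a1 6.08, 7.63 and 0.257 CPM.

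Whether MuSCs express collagen differently after overload was compared within 1 state, the quiescence-marker MuSCs. Of 19 collagen genes, 12 were higher in MOV (background 14.7%) and 0 lower (background 5.95%), with a median log2 ratio of 1.54 against 0.17 over all genes. The higher genes include Col1a1, Col1a2 and Col6a3, whose shares of cells at equal depth did not clearly exceed those of myeloid cells, as given below. Over all MuSCs 7 of 30 were higher (background 13.5%) and 3 lower (background 10.6%), with a median of 0.71, or 0.18 where genes at 0 in a class were set to 3 counts. The states made up different shares of the MuSCs in the 2 libraries, and in sham 42.3% of the Col1a2 UMIs of MuSCs came from 1 cell.

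In sham and MOV quiescence-marker MuSCs, Col3a1 stood at 264 and 1274 CPM (log2 2.26, 2.04 to 2.50). The type IV partners Col4a1 and Col4a2 stood at 309 and 901 CPM (log2 1.54, 1.33 to 1.76) and at 91.3 and 315 CPM (log2 1.78, 1.40 to 2.20). Among the type V chains Col5a3 stood at 73.7 and 283 CPM (log2 1.93, 1.51 to 2.41). Col27a1, another fibrillar chain, stood at 22.4 and 23.4 CPM, so not all fibrillar chains lay above sham. The short-chain collagen Col8a1 stood at 57.7 and 188 CPM (log2 1.68, 1.21 to 2.23), Col6a1 at 73.7 and 186 CPM (log2 1.32, 0.90 to 1.81) and Col26a1, a small collagen first described in testis and ovary, at 4.81 and 31.1 CPM (log2 2.48, 1.09 to 5.00). Col15a1 stood at 101 and 79.5 CPM, within 2-fold.

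At an equal depth of 2000 UMIs per cell, Col3a1 was seen in 28.4% (18.5% to 40.1%) of 74 sham and 83.2% (77.3% to 88.2%) of 197 MOV quiescence-marker MuSCs, and in 40.8% (29.6% to 52.7%) of 76 MOV myeloid cells. Col4a1 was seen in 47.3% and 76.1% of the MuSCs and 6.58% of the myeloid cells, and Col5a3 in 10.8%, 37.1% and 5.26%. For these 3 genes the MOV share lay above the myeloid share. For the type I chains it did not clearly do so. Col1a2 had the largest ratio among genes with UMIs in both libraries, at 11.2 and 225 CPM (log2 4.23, 3.27 to 5.65), and was seen in 0 of 74 sham cells, with an exact upper limit of 4.86%. It was seen in 30.5% (24.1% to 37.4%) of MOV quiescence-marker MuSCs and 28.9% (19.1% to 40.5%) of myeloid cells, so at this depth its share was not distinguishable from that of myeloid cells. Col1a1 stood at 59.3 and 279 CPM (log2 2.22, 1.76 to 2.75) and was seen in 41.1% (34.2% to 48.3%) against 28.9% (19.1% to 40.5%), with overlapping intervals. Without thinning the MOV shares were 98.5% for Col3a1, 86.9% for Col1a1 and 75.3% for Col1a2, and in Gpc3/Islr MuSCs Col1a2 was seen in 69.3% at equal depth. Col6a3 had 0 UMIs in sham and 15.7 CPM in MOV, where its share of 6.09% lay below the 10.5% of myeloid cells, so no expression is read from it. The source of these UMIs was not tested.

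Markers of other cells also differed between the 2 sets of quiescence-marker MuSCs. The Pdgfra list summed to 20.8 CPM in sham and 61.3 CPM in MOV, with 4 of 7 and 7 of 7 markers seen and Pdgfra itself at 0 in sham. The Lrrc15 list summed to 28.8 and 77.1 CPM, the tenocyte list to 1.60 and 42.0 CPM and the myeloid list to 6.41 and 29.5 CPM, against 4954 CPM for the Pdgfra list in MOV Pdgfra cells. Their part in the collagen differences was not tested.

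Pdgfra cells of the MOV library were higher than those of the sham library in 14 of 25 collagen genes (background 16.6%) and lower in 2 (background 18.5%). The median log2 ratio was 1.24 against -0.10 over all genes, or 0.99 with genes at 0 set to 3 counts. In sham and MOV, Col8a1 stood at 94.0 and 1294 CPM (log2 3.76, 3.26 to 4.36) and Col12a1, a FACIT collagen of tendon and fascia, at 13.0 and 172 CPM (log2 3.56, 2.37 to 5.61). The major fibrillar chains followed, with Col3a1 at 1881 and 15237 CPM (log2 3.02, 2.90 to 3.14), Col1a1 at 931 and 7020 CPM (log2 2.91, 2.75 to 3.09), Col5a2 at 282 and 1889 CPM (log2 2.74, 2.44 to 3.06) and Col1a2 at 2312 and 9296 CPM (log2 2.01, 1.90 to 2.12). The FACIT collagens Col14a1 and Col16a1 stood at 58.4 and 331 CPM (log2 2.46, 1.84 to 3.26) and at 22.7 and 93.1 CPM (log2 1.94, 0.99 to 3.36). Col8a2 and Col11a1 had 0 UMIs in sham and 24.4 and 19.3 CPM in MOV, a log2 ratio of at least 1.33 and 0.99 against 3 counts.

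The basement membrane chains of Pdgfra cells differed less between the libraries. Col4a1 stood at 839.8 and 897 CPM, Col4a2 at 315 and 429 CPM and Col15a1 at 525 and 357 CPM in sham and MOV, each within 2-fold. Lower in MOV were Col6a6, at 32.4 and 3.47 CPM (log2 -3.27, -4.32 to -2.01), and the type IV chain Col4a4, at 45.4 and 8.09 CPM (log2 -2.53, -3.34 to -1.54). One sham cell gave 24.4% of the Col1a1, Col1a2 and Col3a1 UMIs of the 33 sham cells. The Lrrc15 list summed to 0 CPM in sham and 874 CPM in MOV Pdgfra cells and the tenocyte list to 188 and 2836 CPM, and their part in the difference was not tested.

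**Figure D3:**
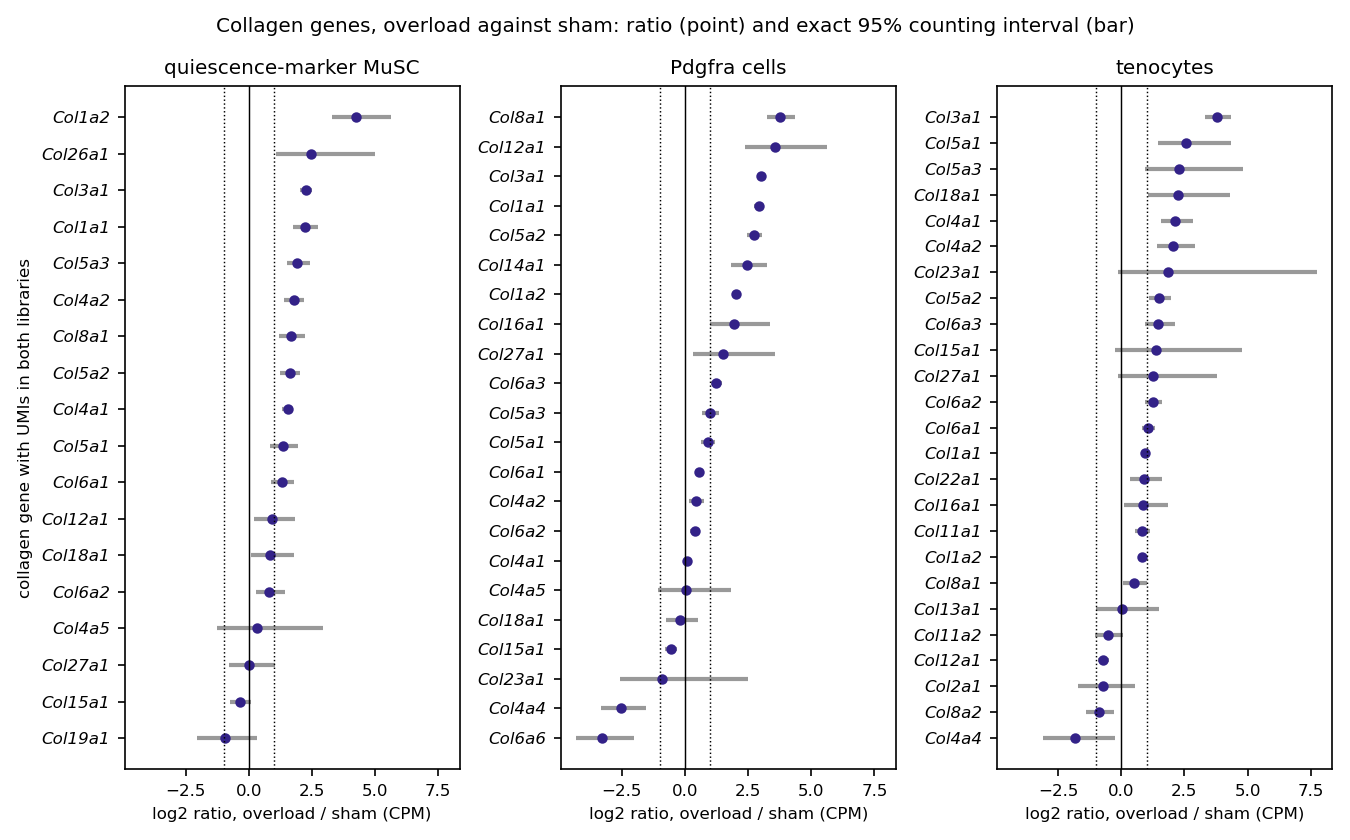
Log2 ratio of CPM, MOV over sham, for collagen genes with at least 20 UMIs in both classes together and UMIs in each library (points, ratio; bars, exact 95% counting interval; dotted lines, 2-fold). Col3a1 lies at 2.26 in quiescence-marker MuSCs, 3.02 in Pdgfra cells and 3.79 in tenocytes, and Col4a1 at 1.54, 0.09 and 2.15.

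Lrrc15 fibroblasts and Pdgfra cells of the MOV library gave like shares of their UMIs to collagen. Fibrillar chains made 88.9% and 83.3% of their collagen UMIs, and the differences past 2-fold lay in less abundant chains. Lrrc15 fibroblasts were higher in 7 of 31 genes (background 3.68%) and lower in 8 (background 7.08%), with a median log2 ratio of -0.13 against -0.04. Higher were the fibril-nucleating chain Col11a1, at 104 against 19.3 CPM (log2 2.42, 2.19 to 2.68), Col12a1, at 608 against 172 CPM (log2 1.82, 1.74 to 1.91), and the anchoring fibril collagen Col7a1, at 11.2 against 0.899 CPM (log2 3.54, 2.56 to 4.98). Col20a1 was also called, at 4.38 against 0.771 CPM (log2 2.40, 1.31 to 4.01), but 43.1% of its UMIs came from 1 cell, and its log2 ratio was -0.54 with the marker minimum doubled. Lower were the basement membrane chains Col4a1, at 161 against 897 CPM (log2 -2.47, -2.54 to -2.41), Col4a2, at 78.1 against 429 CPM (log2 -2.46, -2.56 to -2.36), Col15a1, at 82.5 against 357 CPM (log2 -2.11, -2.21 to -2.02), and Col18a1, at 25.6 against 66.7 CPM (log2 -1.38, -1.57 to -1.19). Within 2-fold lay Col1a1, at 10680 against 7020 CPM, Col3a1, at 11601 against 15237 CPM, and Col5a1, at 1106 against 649.7 CPM.

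Set against MuSCs, Pdgfra cells were higher in 24 of 35 genes in the MOV library (background 19.4%) and lower in 4 (background 15.7%). In the sham library they were higher in 14 of 18 (background 19.5%) and lower in 1 (background 19.5%). The median log2 ratios were 2.42 and 2.15, against -0.07 and -0.01 over all genes. In MOV the widest gaps were the FACIT collagen Col14a1, at 331 against 2.53 CPM (log2 7.02, 6.74 to 7.33), and the type VI chain Col6a3, at 1219 against 13.1 CPM (log2 6.54, 6.41 to 6.67). Endothelial cells read Col6a3 at 21.5 CPM on 5 UMIs, from which the MuSC level could not be told apart. The genes lower in Pdgfra cells were Col19a1 (log2 -4.25, -7.62 to -2.70), Col26a1 (log2 -4.00, -4.93 to -3.30), Col13a1 (log2 -3.88, -9.78 to -1.95) and Col25a1, with 0 UMIs in Pdgfra cells and 0.670 CPM in MuSCs.

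Tenocytes carried collagens that Pdgfra cells hardly held. In the MOV library 9 of 31 genes were higher than in Pdgfra cells (background 6.88%) and 12 lower (background 15.3%), and in the sham library 8 of 21 were higher (background 9.29%) and 9 lower (background 14.7%). In MOV the FACIT collagen Col22a1, known from the myotendinous junction, stood at 196 against 0.514 CPM (log2 8.41, 7.21 to 10.46), Col13a1 at 32.2 against 0.128 CPM (log2 7.40, 5.44 to 13.30), and the type XI chains Col11a1 and Col11a2 at 828 against 19.3 CPM (log2 5.42, 5.18 to 5.68) and 102 against 0.642 CPM (log2 7.18, 6.07 to 8.95). The cartilage collagen Col2a1 was at 23.9 CPM in tenocytes and had 0 UMIs in Pdgfra cells, a log2 ratio of at least 5.96. In sham tenocytes these chains were present too, with Col11a1 at 462 CPM, Col11a2 at 144 and Col22a1 at 102 CPM. Col2a1 stood at 38.1 CPM on 9 UMIs and Col13a1 at 29.7 CPM on 7 UMIs. Of other chains, sham tenocytes held Col12a1 at 987 CPM and Col8a2 at 148 CPM. Sham Pdgfra cells held Col12a1 at 13.0 CPM and 0 UMIs of Col8a2, Col11a1, Col11a2 and Col22a1. Lower in MOV tenocytes were Col15a1, at 27.3 against 357 CPM (log2 -3.69, -4.12 to -3.33), Col14a1, at 27.3 against 331 CPM (log2 -3.58, -4.01 to -3.21), and Col3a1, at 2025 against 15237 CPM (log2 -2.91, -2.96 to -2.87).

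Between the libraries, tenocytes were higher in MOV in 15 of 27 genes (background 11.3%) and lower in 1 (background 12.6%), with a median log2 ratio of 1.26 against -0.05. This comparison was added after the data had been seen. In sham and MOV, Col3a1 stood at 144 and 2025 CPM (log2 3.79, 3.33 to 4.35), with 55.9% of its 34 sham UMIs in 1 cell. Col5a1 stood at 21.2 and 138 CPM (log2 2.57, 1.46 to 4.33) and Col4a1 at 97.4 and 440.5 CPM (log2 2.15, 1.58 to 2.84). The leading tendon chains lay within 2-fold, with Col1a1 at 4783 and 9151 CPM, Col1a2 at 6829 and 12157 CPM and Col12a1 at 987 and 604 CPM. In these cells the tenocyte list summed to 31932 CPM in sham and 20192 CPM in MOV, the Pdgfra list to 1432 and 1126 CPM and the Lrrc15 list to 127 and 417 CPM, with Lrrc15 itself at 0 in sham, and their part in the difference was not tested.

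Vascular and Schwann cells of the MOV library were set against Pdgfra cells. Endothelial cells gave 78.4% of their collagen UMIs to type IV, with Col4a1 at 2106 against 897 CPM (log2 1.23, 1.10 to 1.36) and Col4a2 at 883 against 429 CPM (log2 1.04, 0.83 to 1.24). They were higher in 3 of 25 genes (background 17.8%) and lower in 18 (background 23.6%), with a median of -3.85, or -2.86 with genes at 0 set to 3 counts. Mural cells, the pericytes and smooth muscle of vessels, were higher in 3 of 25 (background 9.8%) and lower in 13 (background 16.4%). They held the highest Col18a1 of the MOV classes, at 683 against 66.7 CPM (log2 3.36, 3.18 to 3.54), and Col4a1 at 1929 against 897 CPM (log2 1.11, 1.02 to 1.19).

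Schwann cells, the myelinating glia of nerve, were higher in 7 of 27 genes (background 21.7%) and lower in 16 (background 16.8%). The FACIT collagen Col20a1 stood at 738 against 0.771 CPM (log2 9.79, 8.77 to 11.36) and was seen in 41.0% of Schwann and 0 of 20 endothelial cells at equal depth. Col9a3, another FACIT chain, stood at 56.6 against 0.257 CPM (log2 7.49, 5.81 to 10.89) and Col28a1, known from peripheral nerve, at 92.0 against 4.37 CPM (log2 4.39, 3.75 to 5.07). Col16a1 was highest in Schwann cells among the MOV classes, at 279.7 CPM. Col27a1 also had its highest value there, at 67.3 CPM, but on 38 UMIs, so its rank is uncertain.

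**Figure D4:**
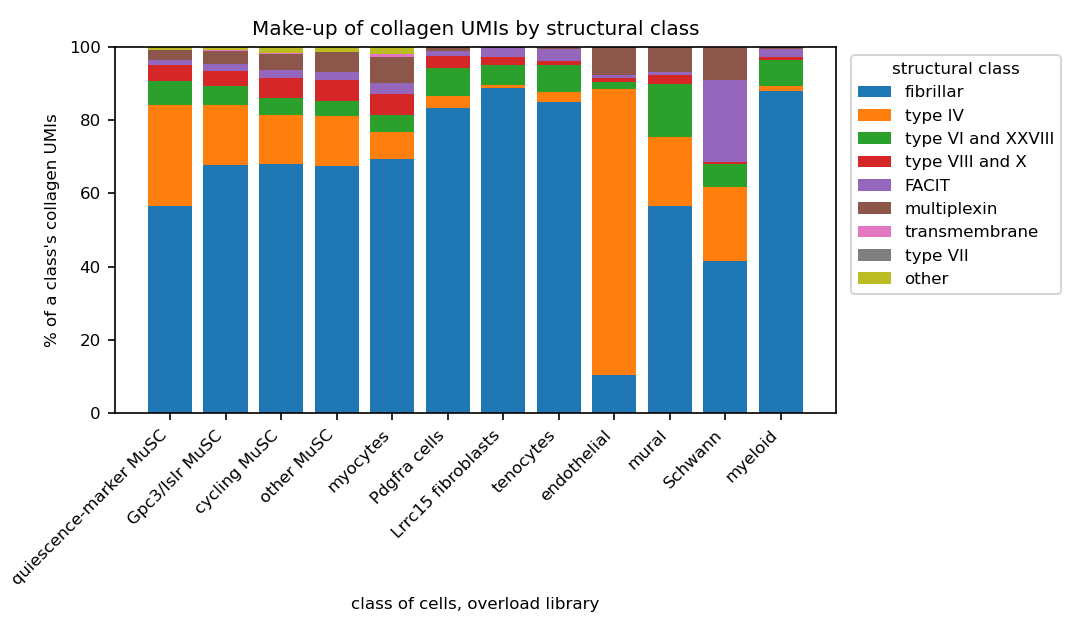
Percentage of the collagen UMIs of each class of the MOV library that fell in each structural class of collagen. Fibrillar chains make 88.9% in Lrrc15 fibroblasts and 10.3% in endothelial cells, type IV 78.4% in endothelial cells, and FACIT collagens 22.3% in Schwann cells.

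The remaining genes at 10 CPM were low or broad. Col9a2 was highest in sham Pdgfra cells at 16.2 CPM, Col4a5 in MOV Pdgfra cells at 18.4 CPM and Col23a1 in MOV tenocytes at 22.5 CPM. The type VI partners Col6a1 and Col6a2 were highest in MOV Pdgfra cells at 1112 and 914 CPM.

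Chains that assemble together were not found in one ratio. Type I collagen holds more chains from Col1a1 than from Col1a2. The UMI ratio of Col1a1 to Col1a2 was 0.755 (0.747 to 0.764) in Pdgfra cells, 0.929 (0.923 to 0.936) in Lrrc15 fibroblasts and 0.753 (0.739 to 0.767) in tenocytes of the MOV library. It was 1.24 (1.11 to 1.39) in quiescence-marker, 0.286 (0.269 to 0.304) in Gpc3/Islr and 0.380 (0.365 to 0.395) in cycling MuSCs. In sham quiescence-marker MuSCs it was 5.29 (2.33 to 14.1) on 37 and 7 UMIs, with 29.7% of the Col1a1 UMIs in 1 cell. The ratio of Col1a1 to Col3a1 set tenocytes apart, at 33.2 (23.6 to 48.2) in sham and 4.52 (4.37 to 4.68) in MOV. It was 0.495 and 0.461 in Pdgfra cells and 0.224 and 0.219 in quiescence-marker MuSCs.

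Type VI collagen is assembled from Col6a1, Col6a2 and another chain such as Col6a3. Col6a3 stood at 1.10 (1.07 to 1.13) of Col6a1 in Pdgfra cells, 1.44 (1.28 to 1.62) in mural cells, 0.277 (0.253 to 0.303) in tenocytes and 0.0846 (0.0594 to 0.117) in quiescence-marker MuSCs of the MOV library. Sham MuSCs held 99 UMIs of Col6a1, 48 of Col6a2 and 0 of Col6a3, a ratio of at most 0.0380, against 0.685 (0.557 to 0.842) in sham Pdgfra cells. Col6a3 was thus the lowest of these 3 chains in the MuSCs of both libraries. Col4a1 and Col4a2 lie head to head on chromosome 8 on opposite strands, with overlapping annotated starts. Their ratio lay between 1.51 in tenocytes and 3.04 in other MuSCs over the MOV classes of at least 20 cells. In MOV, Col5a3 stood at 0.922 (0.831 to 1.02) of Col5a2 in quiescence-marker MuSCs, 0.270 (0.261 to 0.280) in Pdgfra cells and 0.130 (0.109 to 0.154) in tenocytes. Schwann and mural cells of this library read 0.747 (0.579 to 0.960) and 0.606 (0.519 to 0.707). In sham the intervals of quiescence-marker MuSCs, at 0.742 (0.495 to 1.10), and Pdgfra cells, at 0.897 (0.652 to 1.23), overlapped. Sham tenocytes read 0.0652 (0.0130 to 0.203).

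**Figure D5:**
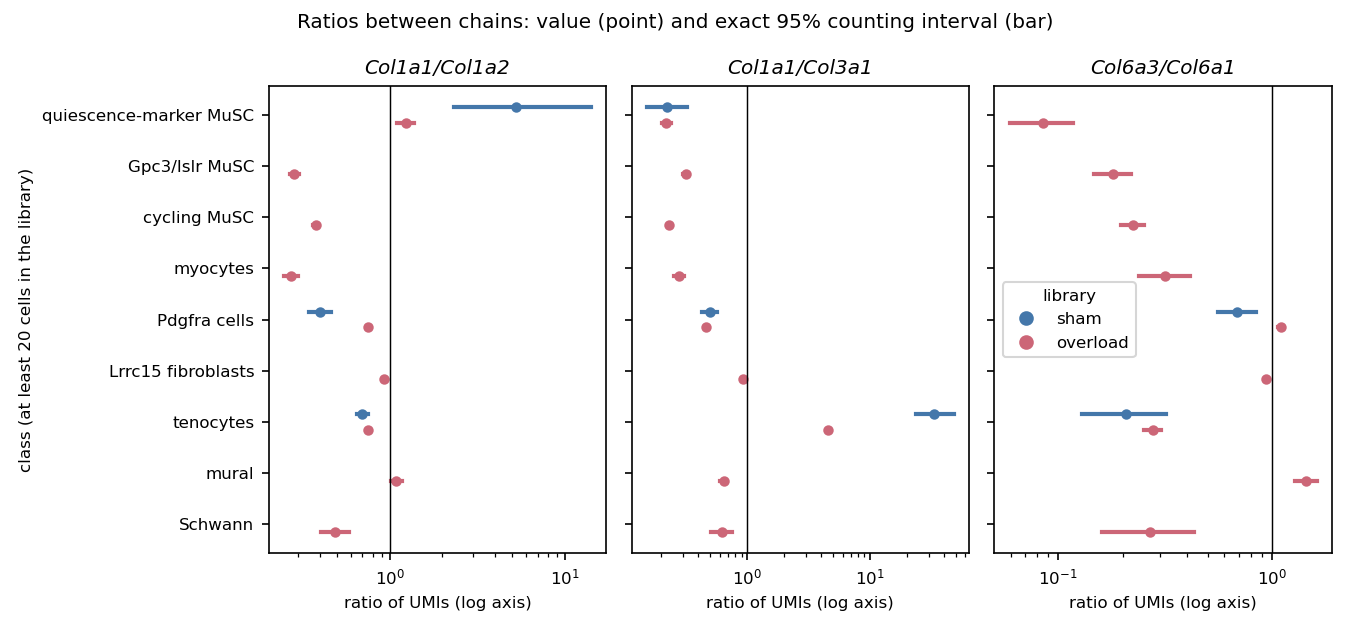
UMI ratio of Col1a1 to Col1a2, Col1a1 to Col3a1 and Col6a3 to Col6a1 in classes with at least 20 cells (points, ratio; bars, exact 95% counting interval; blue, sham; red, MOV; log axes). Tenocytes stand apart for Col1a1 to Col3a1, at 33.2 in sham and 4.52 in MOV.

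The genes that modify, fold, process, cross-link and bind collagen were counted in 5 lists. In quiescence-marker MuSCs, MOV against sham, 4 of 12 tested genes for prolyl and lysyl modification were higher, 3 of 7 for chaperones and export, 2 of 3 for propeptide processing and 0 of 3 for cross-linking, and 0 of these were lower (background 14.7% of all genes higher and 5.95% lower). Of the collagen receptors 1 of 5 was higher and 1 lower. Serpinh1, the collagen chaperone HSP47, stood at 159 and 836 CPM (log2 2.39, 2.11 to 2.70) in sham and MOV, and Pcolce, an enhancer of propeptide cleavage, at 20.8 and 94.0 CPM (log2 2.12, 1.37 to 3.11). The lysyl oxidase Lox stood at 65.7 and 112 CPM (log2 0.76, 0.29 to 1.28), below 2-fold. The receptor that was lower was Calcr, at 30.4 and 14.1 CPM (log2 -1.13, -1.95 to -0.22), which is also among the markers that chose these cells.

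In Pdgfra cells, MOV against sham, 9 of 15 modification genes were higher and 1 lower, 3 of 7 chaperone and export genes were higher, and 5 of 5 cross-linking genes were higher (background 16.6% of all genes higher and 18.5% lower). Of propeptide processing genes 0 of 5 were higher and 1 lower, and of receptors 2 of 8 were higher and 1 lower. Lox stood at 94.0 and 1276 CPM (log2 3.74, 3.24 to 4.34), Serpinh1 at 687 and 1787 CPM (log2 1.37, 1.18 to 1.58) and the prolyl isomerase Ppib at 470.2 and 1270 CPM (log2 1.43, 1.20 to 1.68). Lower was Pcolce2, at 224 and 63.3 CPM (log2 -1.83, -2.19 to -1.44). Against MuSCs of the MOV library, Pdgfra cells were higher in 14 of 15 modification, 5 of 7 chaperone and export, 5 of 6 processing, 5 of 5 cross-linking and 7 of 10 receptor genes (background 19.4%).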

How the data were processed

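The deposited matrices hold UMI counts per gene and cell, which the authors made with Cell Ranger 6.0.0 on mm10 and did not normalize. Cells were kept below a mitochondrial share of 10%. The collagen genes, marker lists, pathway lists and score limits were chosen with earlier results of these data known. A class was the marker list with the highest mean of log UMIs per 10000, with a score of at least 0.2, 5 UMIs and 2 markers, and a cell with a second lineage at 0.7 of the first was left out as a possible doublet (10 sham and 185 MOV cells). No doublet caller was used in the main values. In an alternative the cells with the highest Scrublet scores, 4 sham (0.542%) and 75 MOV cells (2.45%), were removed. UMIs were summed per class, scaled to CPM and compared as log2 ratios with 0.5 added to the counts. A gene without UMIs in a class was set to 3 counts for bounds. The calculation was tested on simulated data. Python 3.11.15, scipy 1.17.1, scanpy 1.11.5, edgeR 4.0.16 and DESeq2 1.42.0 (scaling factors) were used. Named genes were those at 10 CPM or more in a class of at least 20 cells, per comparison at most the 6 farthest in each direction past 2-fold with an interval that excludes no change. Others named were chosen after their values had been seen. Coordinates are GRCm38, the build of the matrices.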

Additional observations from a re-analysis of the deposited data

How the results depend on the processing

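No paired analysis was possible because each condition had 1 library and no test was made. Of the per-gene log2 ratios recomputed under the alternatives, 5559 stayed within the counting interval of the main ratio. Outside it moved 214, and among genes called in the main values 2 changed sign. These were Col23a1 in MuSCs, MOV against sham, at -0.23 with a mitochondrial limit of 5% (main 1.09), and Col20a1 in Lrrc15 fibroblasts against Pdgfra cells, at -0.54 with the marker minimum doubled (main 2.40), and the cause was not tested. Without a filter on low counts, which admits genes with few UMIs, the counts changed by over 1.5 times were 10 lower for MuSCs, 3 for quiescence-marker MuSCs, 14 for Pdgfra cells and 4 for tenocytes between the libraries, 16 higher for Gpc3/Islr MuSCs, 2 higher and 14 lower for cycling MuSCs, 22 higher and 2 lower for sham Pdgfra cells against MuSCs, 15 lower for sham tenocytes, and 15, 10 and 13 higher for endothelial, mural and Schwann cells. The 7 MuSC genes higher in MOV were 4 with the marker minimum doubled and 4 with 1 added to counts. In quiescence-marker MuSCs 1 gene was lower at the 5% limit, with edgeR's TMM factors, with DESeq2's factors and under a stricter limit on a second lineage, which also left 1 gene higher in myocytes. In sham Pdgfra cells against MuSCs, 0 genes were lower at the 5% limit and with shared barcodes left out of both libraries, and 2 at 20%, and 5 were higher in sham tenocytes at 5%. The TMM factors moved all genes by 0.13 (MuSCs, MOV against sham), 0.19 (quiescence-marker MuSCs), -0.15 (MOV tenocytes) and 0.31 (Schwann cells) on the log2 scale, and by -0.11 for myocytes and for sham tenocytes.

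Collagen shares moved past their counting intervals without a change of order between the libraries. At the 5% limit they were 0.150% in sham and 0.233% in MOV MuSCs, 1.12% and 4.10% in Pdgfra cells, 4.13% in Lrrc15 fibroblasts and 1.59% in sham tenocytes. At 20% they were 0.238% in MOV MuSCs, 1.45% and 4.21% in sham and MOV Pdgfra cells, 4.29% in Lrrc15 fibroblasts and 2.99% in MOV tenocytes. Under the stricter limit on a second lineage they were 0.228% in MOV MuSCs, 1.08% and 4.26% in Pdgfra cells, 4.21% in Lrrc15 fibroblasts and 2.78% in MOV tenocytes. With the marker minimum doubled they were 0.232%, 4.18% and 4.28% in MOV MuSCs, Pdgfra cells and Lrrc15 fibroblasts, with the highest doublet scores removed 4.18% and 4.32% in the last 2, and with shared barcodes left out 4.27% in Lrrc15 fibroblasts. The ratio of Col1a1 to Col3a1 in MOV Pdgfra cells was 0.466 at 20% and 0.455 under the stricter limit. At 4000 UMIs per cell the shares of MOV MuSCs with a UMI were 86.5% for Col3a1, 36.7% for Col5a3 and 58.5% for Col4a1, and of myeloid cells 62.3% for Col3a1. The sham MuSCs, quiescence-marker MuSCs, Pdgfra cells and tenocytes hold 98, 74, 33 and 22 cells, and depth limits their rare chains.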
